A study of Mus musculus with 6 samples.

Results

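The pyruvate dehydrogenase system of the mouse left ventricle was followed through 10 genes, chosen by name from the 34945 gene symbols of the count table. They encode the mitochondrial pyruvate carrier (Mpc1, Mpc2), subunits of the pyruvate dehydrogenase complex (Pdha1, Pdhb, Dlat), the kinases that act on the complex (Pdk1, Pdk2, Pdk4) and the phosphatases that oppose them (Pdp1, Pdp2). All 10 were found and all 10 passed the filter on low counts. RNA was sequenced from 3 knock-in mice carrying the 4SA allele of Rad and from 3 wild-type mice, all labelled C57BL/6N. Age, sex and zygosity are not given in the labels used here. Rad, encoded by Rrad, is a small GTP-binding protein that restrains L-type calcium channels of heart muscle cells, and in the 4SA protein serine phosphorylation sites are replaced by alanine. The comparison asks which ventricular transcripts differ between 4SA-Rad knock-in and wild-type mice.

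The pyruvate carrier, a complex of MPC1 and MPC2, brings pyruvate across the inner mitochondrial membrane, and the pyruvate dehydrogenase complex converts it to acetyl-CoA for the citric acid cycle. Kinases of the PDK family phosphorylate the E1 alpha subunit and switch the complex off, and the phosphatases PDP1 and PDP2 remove the phosphate and switch it on. In heart muscle this switch governs how much carbohydrate is oxidised beside fatty acids. PDP1 is known as the phosphatase that calcium stimulates, while PDP2 does not require calcium.

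In knock-in ventricles both phosphatase genes were higher, by 27.4% for Pdp1 and 28.01% for Pdp2, whereas Pdhb, which encodes the E1 beta subunit, fell by 14.4% and Mpc2 fell by 11.7%. The 3 kinase genes, Pdha1, Dlat and Mpc1 did not pass the test. Thus 2 of 10 genes were called higher, where 4.00% of the 13485 genes tested were, and 2 of 10 lower, where 5.01% were, or 4 of 10 against 9.01% in either direction (edgeR's quasi-likelihood test, adjusted p under 0.05 over all genes). The 10 genes were chosen with earlier results of these data known, so these shares are no unbiased test of the set. Normalised counts-per-million (CPM) of the genotypes did not overlap for 7 of the 10 genes, against 29.4% of all genes tested. The median log2 fold change, knock-in over wild-type, was -0.08 over the 10 genes and 0.00 over all genes tested, with 2 genes above 0 and 8 below. All changes in these genes were under 1.5-fold, and the counts depended on single libraries. Without knock-in replicate 3, 0 genes were called in either direction, and without knock-in replicate 2, 0 were higher and 1 lower. Without wild-type replicate 3, 0 were higher and 2 lower, without wild-type replicate 2, 1 was higher and 1 lower, and in the absence of knock-in or wild-type replicate 1, 2 were higher and 1 lower. Of the 4 calls, that of Pdhb was lost in the fewest of these fits.

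**Figure D1:**
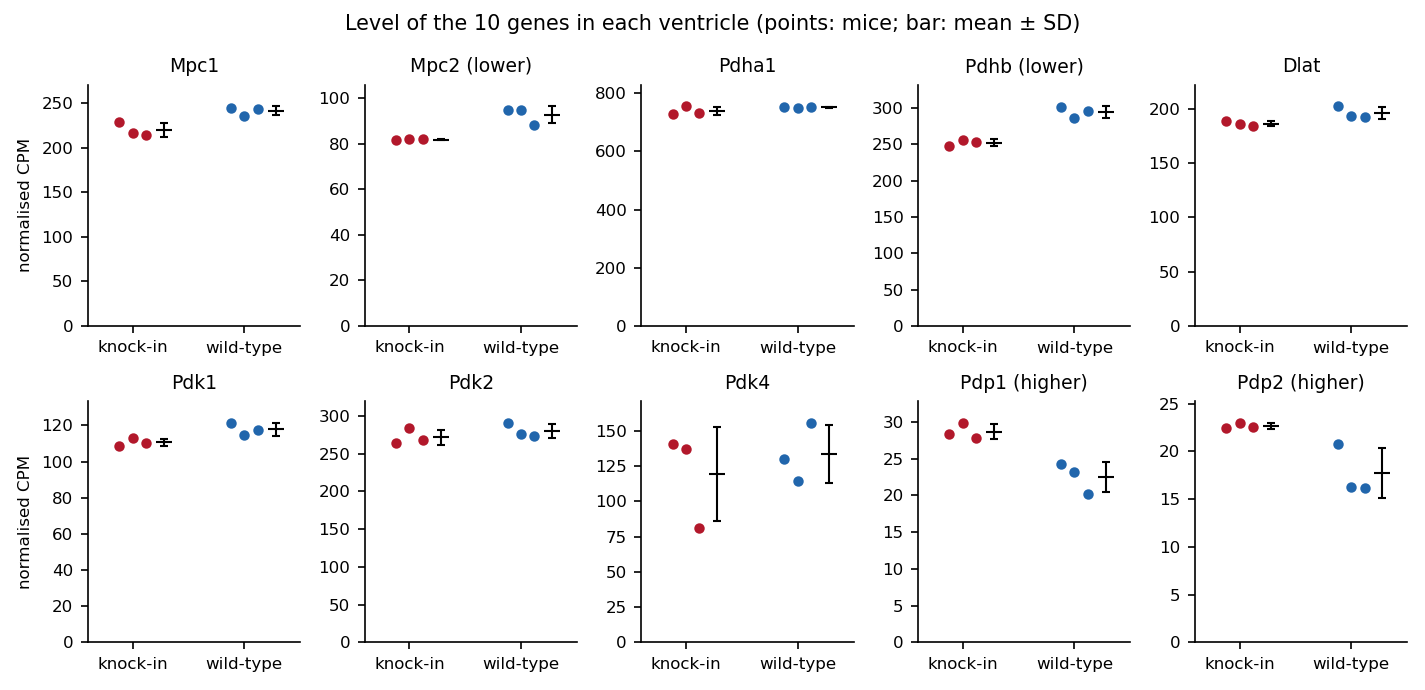
Normalised CPM of the 10 genes (vertical axes, from 0) in each knock-in and wild-type mouse (points), with the mean ± SD of 3 mice beside them. Pdp1 and Pdp2 stood higher and Pdhb and Mpc2 lower in all 3 knock-in mice, and the widest spread among the 10 genes was that of Pdk4.

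The libraries held 35259459 to 39627397 estimated counts in knock-in mice and 24761124 to 32669182 in wild-type mice, so every knock-in library was the deeper. Transcripts of the mitochondrial genome took 53.5% to 56.9% of counts in knock-in and 53.1% to 55.8% in wild-type libraries. Rrad itself stood at 42.0 ± 14.9 CPM in knock-in and 35.6 ± 7.94 CPM in wild-type mice (mean ± SD, n = 3 each) and did not pass the test (edgeR adjusted p = 0.554), and total counts do not separate the 4SA allele from the wild-type allele. All 6 tested genes from loci known to differ between C57BL/6 substrains were called, 3 higher and 3 lower, against 9.01% of all genes tested. These loci were chosen with earlier results of these data known, so their count of calls is no unbiased test. Nnt was at 680 ± 73.8 CPM in knock-in and 272 ± 9.999 CPM in wild-type mice. Wdfy1 was at 15.1 ± 0.456 CPM in knock-in and 5.35 ± 0.497 CPM in wild-type mice. The genotypes thus differed in transcripts of such loci although all mice are labelled C57BL/6N. The label alone therefore does not show that they share a substrain background. For every difference given here, a substrain difference and the altered Rad gene cannot be told apart, because both divide the mice alike. The counts of called cell type markers that follow are to be read beside 4.00% called higher and 5.01% lower among all genes tested. Of 8 cardiomyocyte markers 1 fell (Ckm), with summed levels of 41901 to 42485 CPM in knock-in and 40719 to 42960 CPM in wild-type mice. The ranges of the genotypes did not overlap for 7 of these 8, against 29.4% of all genes tested, with 4 fold changes above 0 and 4 below. Separate ranges were thus not particular to the 10 genes, of which 7 had them. Calls among these 8 varied between 0 and 2 higher and between 0 and 3 lower over the other settings and leave-one-out fits, with 2 higher and 2 lower by DESeq2, 0 and 3 by library size alone and 0 and 0 without knock-in replicate 3. Of 6 macrophage markers 4 fell (Adgre1, Csf1r, C1qa and C1qb), and their summed level was 67.8 to 78.7 CPM in knock-in and 88.8 to 91.6 CPM in wild-type mice. Between 0 (without knock-in replicate 3) and 4 of them passed when each library was omitted in turn, with 1 without knock-in replicate 2 and 2 without wild-type replicate 1 or 2. Of 6 endothelial markers 1 fell (Tie1; 0 fell without knock-in replicate 2 or 3 or wild-type replicate 1 or 3, and 1 was called higher without knock-in replicate 1), at sums of 391 to 458 CPM in knock-in and 415 to 438 CPM in wild-type mice, and none of 6 fibroblast markers was called (1 higher with upper-quartile factors), at 383 to 423 CPM in knock-in and 371 to 452 CPM in wild-type mice. None of 4 tested atrial markers (69.8 to 122 CPM in knock-in, 49.6 to 127 CPM in wild-type) and none of 5 blood markers (602 to 5298 CPM in knock-in, 585 to 2225 CPM in wild-type) was called with all mice. Wild-type libraries differed widely in atrial markers, with Myl7, an atrial myosin light chain gene, at 28.1, 15.1 and 17.3 CPM in knock-in mice, against 6.74, 27.8 and 1.17 CPM in wild-type mice. The median log2 fold change of the atrial markers was 0.60, and without wild-type replicate 2 it was 2.16 with 2 called higher. In the absence of knock-in replicate 1, 1 atrial marker was called lower, as with no filter, and 1 blood marker was called higher without knock-in replicate 2 and with no filter. Skeletal muscle markers were near 0, with 1 of 7 tested and at most 9 counts in any library for the other 6. Of 7 adipocyte markers 3 were tested, none was called and Ucp1 was at 0 in all libraries (sums 190 to 218 CPM in knock-in, 188 to 219 CPM in wild-type). Fabp4 made up most of these sums (177 to 207 CPM in knock-in, 176 to 209 CPM in wild-type). The untested adipocyte markers had at most 13 counts in any library. The part of these cell types in the results was not tested, and in RNA of whole tissue fewer cells of a type and less RNA per cell cannot be told apart.

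Pdp1 encodes the calcium-stimulated catalytic phosphatase. It was at 28.3, 29.8 and 27.9 CPM in knock-in mice, against 24.2, 23.1 and 20.2 CPM in wild-type mice, with mice always listed in the order of replicates 1 to 3. Every knock-in mouse lay above every wild-type mouse. The log2 fold change was 0.35 ± 0.07 (SE; edgeR adjusted p = 0.0180), from 622 to 1124 counts per library. Pdp2, the gene of the second catalytic phosphatase, was at 22.5, 23.0 and 22.6 CPM in knock-in mice, against 20.8, 16.3 and 16.2 CPM in wild-type mice. The 3 knock-in values lay close together and above the wild-type values, of which that of replicate 1 came nearest to them. Its log2 fold change was 0.36 ± 0.09 (SE; edgeR adjusted p = 0.0371), from 528 to 910 counts per library. Pdpr, the regulatory subunit of the phosphatase, did not pass (68.5 ± 3.66 CPM in knock-in, 64.0 ± 1.59 CPM in wild-type, edgeR adjusted p = 0.262).

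Both phosphatase calls depended on single libraries and on scaling. Pdp1 kept its call in 3 of the 6 leave-one-out fits, and not without knock-in replicate 2, knock-in replicate 3 or wild-type replicate 3 (edgeR adjusted p = 0.0557, 0.0609 and 0.0574). Pdp2 kept its call in 2 of the 6 and not without knock-in replicate 2 or 3 or wild-type replicate 2 or 3 (edgeR adjusted p = 0.0892, 0.124, 0.117 and 0.134). Their log2 fold changes stayed above 0 in all of these fits, at 0.27 to 0.40 for Pdp1 and 0.29 to 0.48 for Pdp2. With libraries scaled by their size alone, the edgeR adjusted p was 0.0776 for Pdp1 and 0.105 for Pdp2.

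Pdp2 lies on chromosome 8 (GRCm38, 104591451 to 104599026, plus strand), 29 kb from the nearest end of Rrad (104628070 to 104631327, minus strand), the gene that carries the altered allele. A single annotated gene, Cdh16, lies between them. Among the 34 tested genes annotated within 1 Mb of Rrad, Pdp2 was the one called, higher, and the median log2 fold change was -0.0026. Of all genes tested 9.01% were called in either direction. Of 23 tested genes on a named list of flanking genes, 1 of which lies elsewhere, Pdp2 was also the one called. That list overlaps the window, so its call repeats the same result. Cdh16 was at 0.457 ± 0.174 CPM in knock-in and 0.727 ± 0.229 CPM in wild-type mice and did not pass (edgeR adjusted p = 0.313). Whether Pdp2 differed through its position beside the altered allele was not tested. Pdp1 is a minus-strand gene of chromosome 4 (11958184 to 11966452) with 6 annotated coding transcripts of 1881 to 4201 nt, which counts per gene do not separate.

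The kinases did not pass the test. Pdk1, a kinase induced by hypoxia, was at 109, 113 and 110 CPM in knock-in mice, against 121, 115 and 117 CPM in wild-type mice. Its ranges did not overlap, but the log2 fold change was only -0.09 (95% interval -0.19 to 0.00; edgeR adjusted p = 0.218). Pdk2, a widely expressed isoform, was at 264, 283 and 268 CPM in knock-in mice, against 291, 276 and 273 CPM in wild-type mice. These ranges overlapped, and the interval of the log2 fold change ran from -0.15 to 0.06 (edgeR adjusted p = 0.622). Pdk4, the isoform that fasting and fatty acids induce, was at 141, 137 and 80.9 CPM in knock-in mice, against 130, 115 and 156 CPM in wild-type mice. Knock-in replicate 3 held the lowest value and wild-type replicate 3 the highest, so the genotypes overlapped. The interval of its log2 fold change, -0.56 to 0.24, was the widest of the 10 genes, and the estimate of -0.16 became 0.057 without knock-in replicate 3 (edgeR adjusted p = 0.635 and 0.824). Pdk3, the remaining isoform, was nearly silent at 0.941 ± 0.250 CPM in knock-in and 0.764 ± 0.321 CPM in wild-type mice.

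Levels were compared between isoforms as CPM per kilobase of the longest coding transcript. Rankings and shares depend on that choice, which the SD over mice does not cover. Coding transcripts run from 1881 to 4201 nt for Pdp1 and from 573 to 3484 nt for Pdk4. On that scale Pdk2 was the most abundant kinase, at 121 ± 4.604 CPM per kb in knock-in and 125 ± 4.21 CPM per kb in wild-type mice, followed by Pdk4 at 34.3 ± 9.62 in knock-in and 38.3 ± 5.93 in wild-type mice and Pdk1 at 21.3 ± 0.416 in knock-in and 22.7 ± 0.655 in wild-type mice (mean ± SD, n = 3 each). In knock-in replicate 3 Pdk4 stood at 23.2 CPM per kb, close to the 21.2 of Pdk1 in that mouse. Pdk2 made up 68.5% ± 3.76 of the summed kinase level in knock-in and 67.0% ± 2.42 in wild-type mice, and Pdk4 made up 19.2% ± 4.44 in knock-in and 20.6% ± 2.70 in wild-type mice. Phosphatase transcripts were scarcer, at 6.83 ± 0.248 CPM per kb in knock-in and 5.36 ± 0.490 CPM per kb in wild-type mice for Pdp1. Those of Pdp2 were at 3.98 ± 0.0499 CPM per kb in knock-in and 3.12 ± 0.461 CPM per kb in wild-type mice. Pdp1 made up 63.1% ± 0.583 of the summed phosphatase level in knock-in and 63.3% ± 2.31 in wild-type mice. The log2 ratio of summed kinases to summed phosphatases was 4.07, 4.07 and 3.95 in knock-in mice, against 4.34, 4.41 and 4.62 in wild-type mice. This ratio was lower in all 3 knock-in mice, by 0.43 on average, and the exact two-sided permutation p was 0.1, the smallest that 3 against 3 allows (0.6 adjusted over 6 measures). The called genes Pdp1 and Pdp2 form its denominator, so it is no independent evidence for those calls. The exact p of the 4 kinase shares and the Pdp1 share was 0.5 or more.

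Pdk4 ranged most widely of the 10 genes over the 6 libraries, by 0.94 on the log2-CPM scale, followed by Pdp1 (0.56) and Pdp2 (0.50), and Pdha1 the least (0.05). The genes whose centred log2-CPM profile over the 6 libraries lay closest to that of Pdk4 were Cdh20, Dimt1, Cfap74, Zfp968 and Hs3st3a1, with mean absolute differences of 0.06, 0.09, 0.10, 0.11 and 0.11 per library. All 5 were expressed at low levels, between 0.469 CPM for the wild-type mean of Hs3st3a1 and 3.98 CPM for that of Dimt1.

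**Figure D2:**
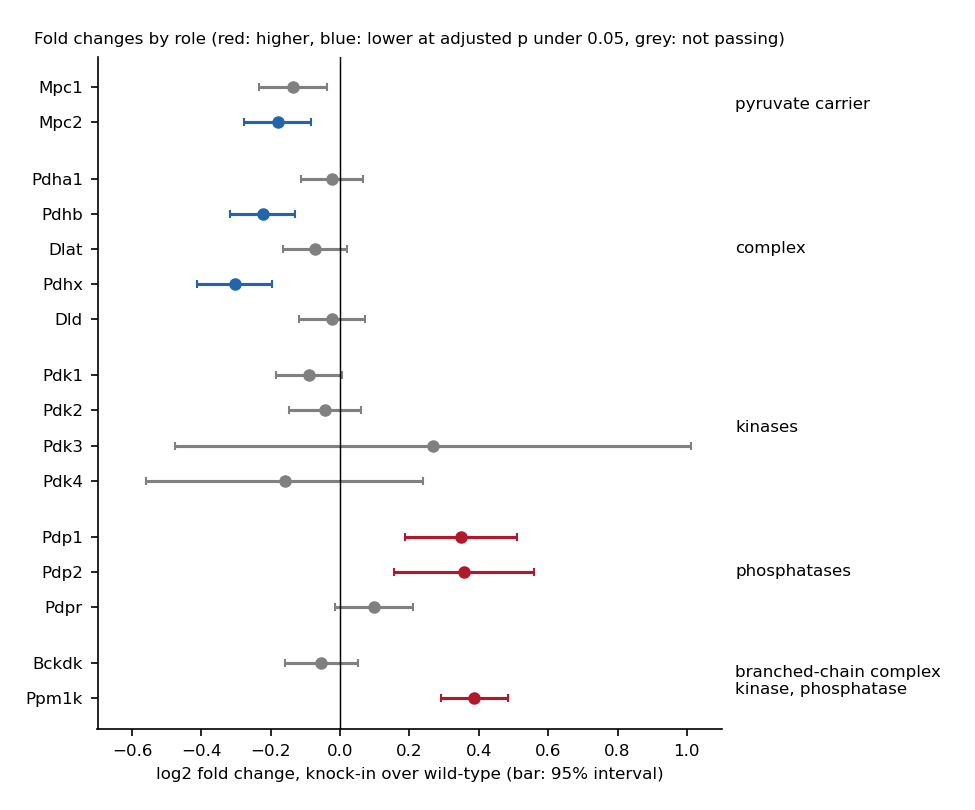
Log2 fold change, knock-in over wild-type (horizontal axis), with its 95% interval for genes of the pyruvate dehydrogenase system grouped by role, and for the kinase and phosphatase of the branched-chain complex. The phosphatase genes Pdp1 and Pdp2 lay above 0 and Pdhb, Pdhx and Mpc2 below it, and the kinase intervals included 0, that of Pdk1 by its upper end at 0.00. The interval of Mpc1, which did not pass the test, also lay below 0 (-0.233 to -0.037).

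Among subunits of the complex, Pdhb and Pdha1 encode the partners that form the E1 enzyme, which decarboxylates pyruvate. Pdhb was at 247, 256 and 253 CPM in knock-in mice, against 301, 286 and 296 CPM in wild-type mice. No knock-in value reached the wild-type range, and the log2 fold change was -0.22 ± 0.04 (SE; edgeR adjusted p = 0.0115). Pdhb was called under all 10 other settings and in 5 of the 6 leave-one-out fits, and not without knock-in replicate 3 (edgeR adjusted p = 0.0602). Pdha1, the E1 alpha subunit that the kinases phosphorylate, was at 729, 754 and 732 CPM in knock-in mice, against 753, 748 and 752 CPM in wild-type mice. The genotypes overlapped, and the 95% interval of its log2 fold change was -0.11 to 0.07 (edgeR adjusted p = 0.762).

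Dlat, the E2 core that transfers the acetyl group to coenzyme A, was at 189, 186 and 184 CPM in knock-in mice, against 202, 193 and 193 CPM in wild-type mice. The ranges were adjacent without overlap, and the log2 fold change of -0.07 did not pass (95% interval -0.17 to 0.02, edgeR adjusted p = 0.321). Pdhx, which is not among the 10 genes and encodes the protein that binds E3 to the core, fell to 65.8 ± 2.29 CPM in knock-in mice, against 81.3 ± 3.49 CPM in wild-type mice. Its log2 fold change was -0.30 ± 0.05 (edgeR adjusted p = 0.00584), and it kept its call in all 6 leave-one-out fits. Dld, the E3 subunit shared with other complexes, did not pass (256 ± 6.68 CPM in knock-in, 261 ± 5.57 CPM in wild-type, edgeR adjusted p = 0.778). Of the 9 tested genes in the list of the rest of the system, which also holds lipoylation and thiamine cofactor genes, 1 fell (Pdhx), 8 did not pass and none rose. The median log2 fold change of that list was 0.06, and 5.01% of all genes tested were called lower. Pdha2, a testis form of E1 alpha, was at 0 in all libraries.

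Ratios of counts within a library do not depend on scaling between libraries. They were chosen after the data were seen, with genes already called as numerators. Their separation is therefore no independent evidence for those calls. Per 100 counts of Pdha1 there were 33.9, 34.0 and 34.5 counts of Pdhb in knock-in mice, against 39.96, 38.2 and 39.4 in wild-type mice. Per 100 counts of Dlat there were 34.96, 36.5 and 34.5 counts of Pdhx in knock-in mice, against 41.8, 40.1 and 42.5 in wild-type mice. Both ratios were lower in each of the 3 knock-in mice than in any wild-type mouse. Counts of Pdp1 and Pdp2 together per 100 counts of Pdk1, Pdk2 and Pdk4 together were 9.89, 9.91 and 11.0 in knock-in mice, against 8.31, 7.80 and 6.68 in wild-type mice. This ratio was higher in every knock-in mouse, and it holds nearly the same genes as the log2 ratio of summed kinases to summed phosphatases given above. By contrast, Mpc2 per 100 counts of Mpc1 was 35.7, 37.7 and 38.3 in knock-in mice, against 38.7, 40.1 and 36.4 in wild-type mice, which overlapped. The exact two-sided permutation p was 0.1, the smallest possible, for the first 3 ratios and 0.4 for the last, or 0.125 and 0.4 adjusted over 5 ratios.

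**Figure D3:**
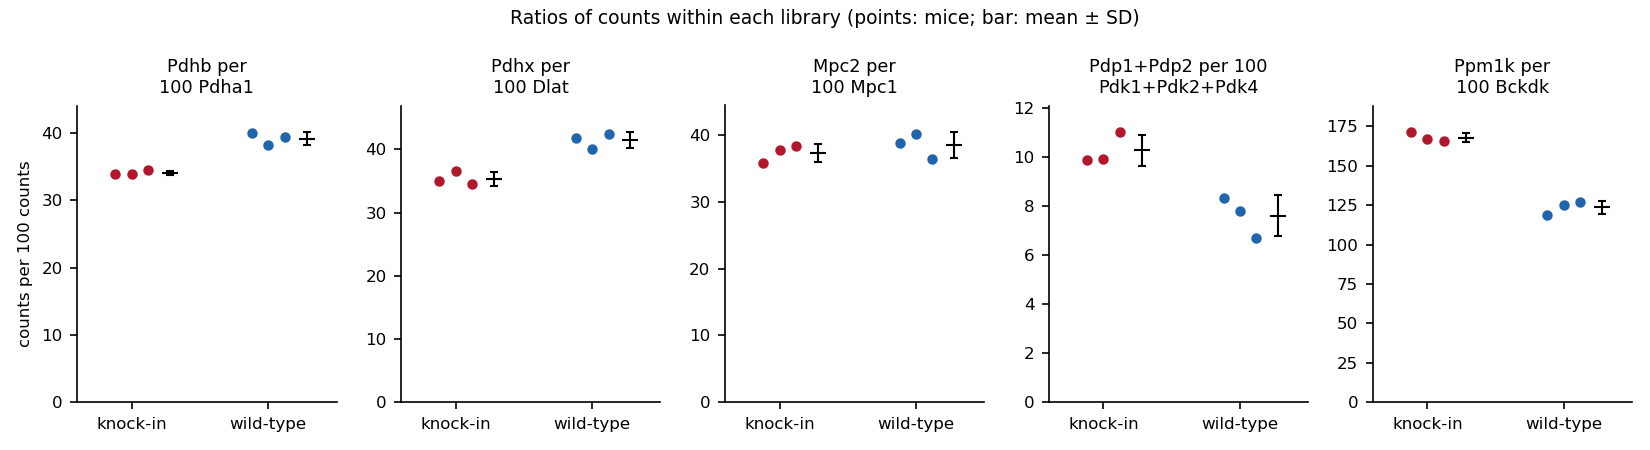
Counts of a gene per 100 counts of its partner in the same library (vertical axes, from 0), for each knock-in and wild-type mouse (points), with mean ± SD of 3 mice. The genotypes were separate for 4 of the 5 ratios and overlapped for Mpc2 per 100 Mpc1. The ratios were chosen after the data were seen, with called genes as numerators.

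Both carrier genes had lower means in knock-in mice, and Mpc2 passed the test. Mpc2 was at 81.6, 81.9 and 81.9 CPM in knock-in mice, against 94.99, 94.6 and 88.4 CPM in wild-type mice. The ranges did not overlap, and the log2 fold change was -0.18 ± 0.04 (SE; edgeR adjusted p = 0.0314). Mpc2 kept its call in 1 of the 6 leave-one-out fits. The edgeR adjusted p was 0.0587, 0.0909 and 0.127 without knock-in replicates 1, 2 and 3, and 0.0869 and 0.0960 without wild-type replicates 1 and 2, with log2 fold changes of -0.21 to -0.16 over all 6 fits. With upper-quartile scaling it was 0.0519. Mpc1 was at 229, 217 and 214 CPM in knock-in mice, against 245, 236 and 243 CPM in wild-type mice. These ranges did not overlap either, but the log2 fold change of -0.13 ± 0.04 (SE) did not pass (edgeR adjusted p = 0.0863). Scaled by library size alone Mpc1 passed, with a log2 fold change of -0.22 (edgeR adjusted p = 0.0274).

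**Figure D4:**
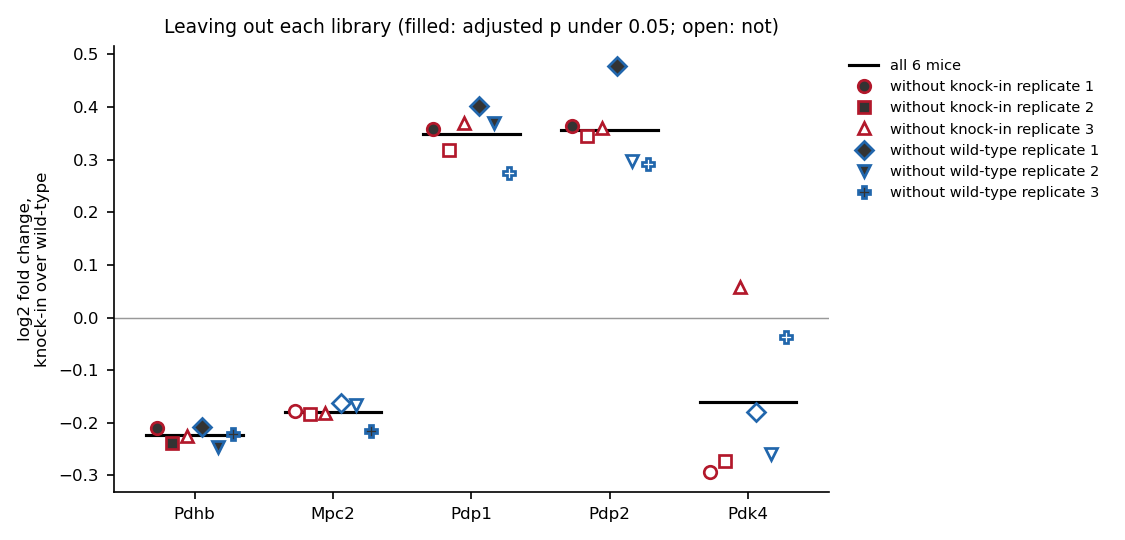
Log2 fold change, knock-in over wild-type (vertical axis), of the 4 called genes and Pdk4 with all 6 mice (black lines) and with each library left out (symbols, filled where the edgeR adjusted p was under 0.05). The 4 called genes kept their direction, at -0.25 to -0.21 for Pdhb and 0.27 to 0.40 for Pdp1, while Pdk4 ran from -0.29 to 0.06.

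Mpc1 shares its sequence with a processed pseudogene, Mpc1-ps, a reverse-transcribed copy of 330 nt on chromosome 12 (GRCm38, 110858565 to 110858894, minus strand), while Mpc1 lies on chromosome 17 (8282904 to 8297661, plus strand). The pseudogene was given 164, 159 and 230 estimated counts in knock-in mice, against 0, 0 and 5 in wild-type mice. It was called higher (edgeR adjusted p = 5.95e-05), and no fold change is given against libraries at 0. The first 100 bases of both are shown from the start codon of Mpc1 (GENCODE transcripts of GRCm38), with the bases that differ between them in capitals, to show how little separates the 2 genes.
Mpc1: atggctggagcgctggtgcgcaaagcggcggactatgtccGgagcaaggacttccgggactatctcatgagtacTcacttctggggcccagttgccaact
Mpc1-ps: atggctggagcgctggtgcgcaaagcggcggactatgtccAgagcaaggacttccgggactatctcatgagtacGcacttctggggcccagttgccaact
Over all 330 bases 328 were identical to the Mpc1 transcript shown. With positions counted from 1 at the start codon, the differences were G41A and T75G, Mpc1 base first. Another Mpc1 transcript matched 329 of the bases and differed only by G41A. Cut into windows of 31 bases, the pseudogene had 300 windows, of which 269 (89.7%) also occurred in an Mpc1 transcript, and the other 31 all covered position 41. A stretch of 31 bases that does not cover position 41 therefore occurs in both genes.

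Mpc1-ps took 2.13%, 2.07% and 2.60% of the summed Mpc1 and Mpc1-ps counts in knock-in mice. In wild-type mice its share was 0 of 6293 and 0 of 7915 counts, which allow up to 0.0477% and 0.0379% (3 counts), and 0.0631% in replicate 3. With the pseudogene's counts added to Mpc1, the log2 fold change of Mpc1 was -0.10 (95% interval -0.20 to -0.0050) in place of -0.13, and the edgeR adjusted p was 0.178 in place of 0.0863. Whether the pseudogene is transcribed or received reads of Mpc1, and whether the mice differ in the base at position 41, was not tested.

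**Figure D5:**
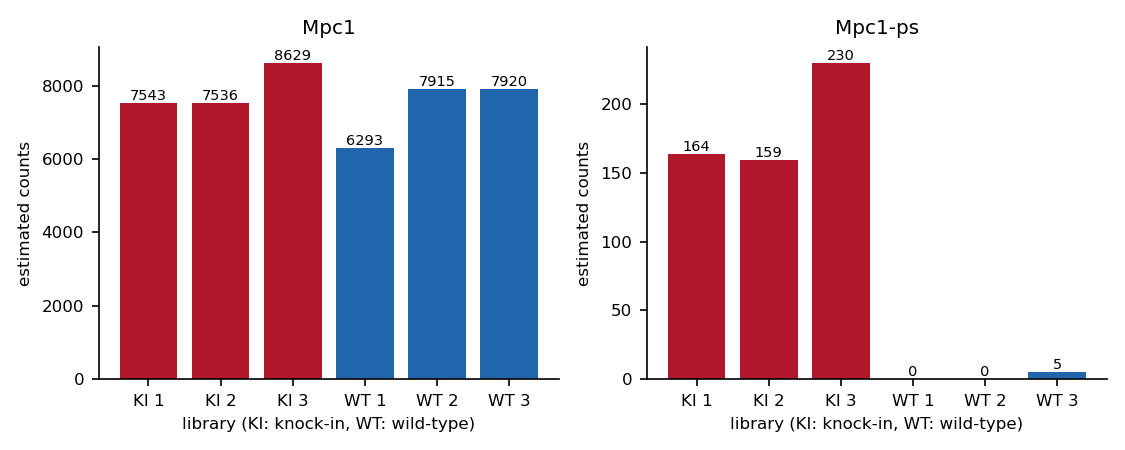
Estimated counts (vertical axes, from 0, on different scales) of Mpc1 and of its pseudogene Mpc1-ps in each library. Mpc1-ps held 159 to 230 counts in the knock-in libraries and 0 to 5 in the wild-type libraries, beside 6293 to 8629 counts of Mpc1 over the 6 libraries.

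Promoter windows, from 250 bases before to 50 after the annotated start, were taken from RefSeq (GRCm38.p6) for 9 of the 10 genes, all but Pdp1. The windows of the called genes Pdp2 (chr8:104591222-104591521, plus strand), Pdhb (chr14:8172943-8173242, minus strand) and Mpc2 (chr1:165461010-165461309, plus strand) are shown 5′ to 3′ so that genes called in opposite directions can be compared. Capitals mark the GC box (GGGCGG), the CCAAT box (CCAAT) and the E-box (CACGTG) on either strand.
Pdp2: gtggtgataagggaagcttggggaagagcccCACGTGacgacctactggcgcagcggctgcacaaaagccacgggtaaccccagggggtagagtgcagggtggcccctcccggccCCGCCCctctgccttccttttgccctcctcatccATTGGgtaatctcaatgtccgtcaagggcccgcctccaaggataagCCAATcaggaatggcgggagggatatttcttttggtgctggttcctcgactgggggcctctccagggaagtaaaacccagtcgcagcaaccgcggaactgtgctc
Pdhb: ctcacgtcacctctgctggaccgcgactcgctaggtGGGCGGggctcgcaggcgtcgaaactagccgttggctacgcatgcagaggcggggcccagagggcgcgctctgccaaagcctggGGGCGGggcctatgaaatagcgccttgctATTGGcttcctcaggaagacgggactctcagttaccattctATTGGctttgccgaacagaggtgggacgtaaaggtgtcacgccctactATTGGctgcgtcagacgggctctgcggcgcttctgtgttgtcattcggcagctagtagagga
Mpc2: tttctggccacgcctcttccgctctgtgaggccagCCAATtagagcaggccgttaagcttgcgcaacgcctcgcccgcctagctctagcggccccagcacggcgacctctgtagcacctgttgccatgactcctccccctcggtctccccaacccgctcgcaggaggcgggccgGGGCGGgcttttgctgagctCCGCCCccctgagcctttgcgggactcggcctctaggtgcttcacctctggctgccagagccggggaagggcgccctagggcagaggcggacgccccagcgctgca
GC and CCAAT boxes, general elements of housekeeping promoters, were present in all 3 windows and in 35.7% and 37.4% of the 32851 windows of all genes. They were not particular to called genes. Among members that were not called, Dlat, Mpc1 and Pdk1 had a GC box, and Mpc1, Pdk2 and Pdk4 had a CCAAT box. Pdp2 had 1 GC box and 2 CCAAT boxes, Pdhb had 2 and 3, and Mpc2 had 2 and 1, with no overlap between marked motifs. Their GC content was 60.7%, 61.0% and 68.7%, against a median of 52.7% over all windows. An E-box was found in Pdp2 and, among the other members, in Pdk2, and in 7.15% of all windows. The element TCAAGGTCA bound by oestrogen-related receptors, the PPAR element (a direct repeat of AGGTCA with any 1 base between) and the FOXO element TGTTTAC were in none of the members' windows and in 0.423%, 0.0396% and 3.65% of all windows. These matches describe letters and not bound sites.

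The nearest relatives of the system are the complexes that oxidise 2-oxoglutarate and branched-chain 2-oxoacids. Of 9 tested genes of these complexes and their regulators, 1 rose (Ppm1k), 8 did not pass and none fell, with a median log2 fold change of 0.03. Among all genes tested, 4.00% were called higher and 9.01% in either direction. Ppm1k, the phosphatase that activates the branched-chain complex, was at 80.6, 82.4 and 82.9 CPM in knock-in mice, against 61.4, 61.6 and 65.0 CPM in wild-type mice. The genotypes were well separated, the log2 fold change was 0.39 ± 0.04 (SE; edgeR adjusted p = 0.00113), and it kept its call in all 6 leave-one-out fits. The opposing kinase gene Bckdk did not pass (48.9 ± 1.52 CPM in knock-in, 50.7 ± 1.36 CPM in wild-type, edgeR adjusted p = 0.537). Counts of Ppm1k per 100 counts of Bckdk were 171, 167 and 166 in knock-in mice, against 119, 125 and 127 in wild-type mice (exact two-sided permutation p = 0.1, the smallest possible; 0.125 adjusted over the 5 ratios). The catalytic phosphatase genes of both complexes were thus called higher with all 6 mice, the calls of Pdp1 and Pdp2 being lost in 3 and 4 of the leave-one-out fits. For the branched-chain complex this rests on Ppm1k alone. The kinase genes of neither complex passed, nor did the regulatory subunit gene Pdpr.

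Of 12 genes for other routes of pyruvate (lactate dehydrogenase, pyruvate kinase, carboxylation, transamination, malic enzymes and export), 1 fell (Slc16a7), 11 did not pass and none rose, with a median log2 fold change of -0.04, and 2 were called lower without knock-in replicate 1. Among all genes tested 5.01% were called lower. Slc16a7, which encodes the monocarboxylate transporter MCT2, was at 3.65 ± 0.789 CPM in knock-in and 6.46 ± 0.359 CPM in wild-type mice (log2 fold change -0.81 ± 0.15, edgeR adjusted p = 0.0107). The lactate dehydrogenase genes Ldha (-0.06) and Ldhb (-0.02) and the pyruvate carboxylase gene Pcx (-0.02) had log2 fold changes near 0.

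Among all genes tested, 4.00% were called higher and 5.01% lower, to be read beside each count in this paragraph. The lists were chosen with earlier results of these data known. Of 14 factors known to act on Pdk4 expression, 4 fell, 1 rose and 9 did not pass (median log2 fold change -0.15). The orphan receptor gene Nr4a1 fell to 14.1 ± 6.17 CPM in knock-in mice, against 57.9 ± 11.2 CPM in wild-type mice (edgeR adjusted p = 0.00190). Klf15 (-0.26) and Foxo3 (-0.24) fell on the log2 scale, as did Ppara, and Hif1a, the hypoxia-inducible factor subunit, rose by 0.41 ± 0.08 (edgeR adjusted p = 0.0149). Without knock-in replicate 2, knock-in replicate 3 or wild-type replicate 3, 1 of the 14 was called lower, and without knock-in replicate 3 the call of Hif1a was lost, leaving 0 higher. Pdk4 belongs to 2 lists of responsive genes whose called members lay on opposite sides of 0. Of 20 genes that respond to PPAR factors 6 rose and 14 did not pass, Pdk4 among them (median log2 fold change 0.18). With library size alone 2 of them were called higher and 1 lower, and 3 were called higher without knock-in replicate 2 or without wild-type replicate 3, and 4 without knock-in replicate 3 or wild-type replicate 1. Among those that rose were Ech1 (0.29), Cpt1a (0.33) and the fatty acid-binding protein gene Fabp3 (0.23), as log2 fold changes. Of 16 genes that respond to FOXO factors or glucocorticoids 9 fell and 7 did not pass, again including Pdk4 (median log2 fold change -0.50). With a library omitted 4 (without knock-in replicate 3) to 11 (without knock-in replicate 1) were called lower, with 5 in the absence of knock-in replicate 2 or of wild-type replicate 3, and 6 and 7 in the absence of wild-type replicates 2 and 1. With robust dispersions 5 were called lower. The lowest p-values were those of the metallothionein genes Mt2 (-1.53) and Mt1 (-0.88), the transcription factor gene Zbtb16 (-1.44) and the insulin receptor substrate gene Irs2 (-1.94). Of 14 tested hypoxia-responsive genes 6 fell and 8 did not pass, Pdk1 among them (median log2 fold change -0.16), and 4 were called lower without knock-in replicate 3. Those with the smallest p were P4ha1 (-0.84), Bnip3 (-0.51), Egln3 (-0.58) and Vegfa (-0.28), as log2 fold changes.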

How the data were processed

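Left ventricular RNA was prepared with on-column DNase digestion and a stranded TruSeq kit, per the labels. Named tools are bcl2fastq 2.19 and kallisto 0.44.0, with build GRCm38, per the submitters' processing notes. The deposited values are whole-number estimated counts per gene symbol, which the authors did not scale between libraries. The sources used here do not give how transcripts were summed and rounded, the annotation or the use of strand. Near-identical sequences, as of Mpc1 and Mpc1-ps, share reads by estimation, so their division is uncertain.

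Columns were assigned to mice by sample number and mouse code, and 0 sample columns were left unused. Counts were analysed in R 4.3.3 with edgeR 4.0.16 (filterByExpr, TMM scaling, glmQLFit and glmQLFTest, genotype alone, all 6 mice). This left 13485 genes, all of which entered the Benjamini-Hochberg adjustment. A gene is called when its adjusted p is under 0.05, and rose or fell is written of called genes. Counts of calls in a list stand beside 4.00% higher and 5.01% lower among all genes tested. The biological coefficient of variation was 8.35%. Within-genotype pairs of libraries differed far beyond sampling noise (chi-square per degree of freedom 7.98 or more). The steps were tested on simulated data. Single values per mouse were compared by exact permutation tests over 20 regroupings. Floors cover counting error only. Coordinates and transcript lengths are from GENCODE M21 (GRCm38).

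Other settings were DESeq2 1.42.0, limma-voom (limma 3.58.1), other scalings and filters, robust dispersions, mitochondrial transcripts left out, pseudogene counts added to Mpc1 and each library left out. The ratios within libraries, the pseudogene share and the 1 Mb window around Rrad were added after seeing the data. The 10 genes and the other gene lists were chosen with earlier results of these data known. Genes named are the 10, Mpc1-ps, Rrad, the 5 profiles nearest to the widest-ranging member and, in each list but the substrain loci, the 4 called genes of lowest p. Of the substrain loci only Nnt and Wdfy1, both called higher, are named. Other genes named (Myl7, Pdpr, Dld, Pdk3, Ppara, Pdha2, Bckdk, Cdh16, Ldha, Ldhb, Pcx, Nnt, Wdfy1, the called cell type markers and, of the adipocyte markers, Ucp1 and Fabp4) are partners or checks chosen after their values were seen. A gene that this rule would name is not reported here.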

Additional observations from a re-analysis of the deposited data

How the results depend on the processing

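The fold changes of the 10 genes and the counts of calls were recomputed under 10 other settings and with each library left out. The kinase and phosphatase shares were recomputed without length scaling and with each library left out, and the ratios within libraries with each library left out. The directions of the 10 fold changes held under the 10 settings, and the direction of Pdk4 alone changed when a library was left out, to a log2 fold change of 0.057 without knock-in replicate 3 (range -0.29 to 0.057). Scaling by library size alone left 0 of the 10 genes called higher, with log2 fold changes of 0.26 for Pdp1 and 0.27 for Pdp2, and called Mpc1 (-0.22). Upper-quartile factors left 1 gene called lower, with Mpc2 at -0.16. Over fits with a library left out, 0 to 2 genes were called higher and 0 to 2 lower, at -0.21 to -0.16 for Mpc2, -0.25 to -0.21 for Pdhb, 0.27 to 0.40 for Pdp1 and 0.29 to 0.48 for Pdp2. These fits have fewer mice. Differences in isoform share, knock-in minus wild-type in percentage points, were small. Most took both signs when a library was left out, at -0.566 to 0.104 for Pdk1, -0.683 to 2.91 for Pdk2, -2.99 to 1.17 for Pdk4 and -1.17 to 1.11 for Pdp1. That of Pdk3 stayed above 0, at 0.0198 to 0.106. The cause of these changes was not tested. Over all genes, library size alone gave 227 higher and 1177 lower calls, against 540 and 675 with TMM, and the count of calls was 338 without knock-in replicate 3 and 485 without wild-type replicate 3, against 1215 with all mice. Low counts limit Pdk3 (14 to 40 per library) and the wild-type share of Mpc1-ps, and with 3 mice per genotype a p that misses the threshold does not show equal levels.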
